A study of Mus musculus with 4 samples.

Results

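The GATA factors and their FOG cofactors are a small family of mouse transcription regulators, and all 8 of its genes (Gata1 to Gata6, Zfpm1 and Zfpm2) were taken by name from the 27095 genes of a count table of H3K27me3. The mark had been profiled by Cut&Tag, in which an antibody guides a transposase that cuts and tags the chromatin around it, in alveolar macrophages sorted from the lung. The Suz12 conditional knockout (Suz12 cKO) and the wild-type group had 2 libraries each, described as biological replicates. They came from C57BL/6-Ly5.1 mice that were lethally irradiated and given bone marrow that was 90% Ly5.2, of Suz12 cKO or wild-type genotype, and 10% wild-type Ly5.1. All 4 libraries thus share the irradiated Ly5.1 host, the C57BL/6 background and the fraction of wild-type Ly5.1 marrow. Whether the sorted cells were separated by Ly5 type, the Cre driver of the knockout, and the age and sex of the mice were not given in the sources at hand. Fewer cells with a mark and less of the mark in each cell cannot be told apart in such bulk libraries.

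GATA factors are zinc finger proteins that bind GATA sequences in DNA. Gata1, Gata2 and Gata3 act mainly in blood: Gata1 drives red cells, megakaryocytes, mast cells and eosinophils, Gata2 maintains blood stem cells and mast cells, and Gata3 drives T cells and type 2 innate lymphoid cells. Gata4, Gata5 and Gata6 pattern the heart and the endoderm, and Gata6 is also the factor that defines resident macrophages of the peritoneum. The FOG proteins, encoded by Zfpm1 (FOG1) and Zfpm2 (FOG2), bind GATA factors rather than DNA and recruit corepressors. Suz12 is an obligate subunit of PRC2, the complex that deposits H3K27me3 on silenced developmental genes.

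The libraries held 3331138 and 3567282 counts for cKO and 2592297 and 2142175 for wild type. In a comparison of counts over genes, chi-square divided by its degrees of freedom was 1.80 for the cKO pair and 2.04 for the wild-type pair, above the value of sampling noise, and 3.79 to 4.30 for pairs of unlike genotype. The Suz12 window had 11 and 10 counts in cKO and 8 and 10 in wild type, too few for the test, and since the labels do not say which part of the gene is deleted, they are no check of the knockout. Of 19 alveolar macrophage marker genes, 9 were below the count filter and 1 was at 0 in all libraries. The median of their levels was 0.153 CPM per kb in cKO and 0.139 in wild type. Among the 10 that were tested, the log2 fold change of cKO over wild type was positive for 7, with a median of 0.42, against −0.01 over all tested genes. Of these, 0 gained or lost at an adjusted p below 0.05 in edgeR's test, against 6.42% of all tested genes. Their summed signal was 131 and 120 CPM in the cKO libraries and 109 and 99.4 in the wild-type libraries. That of 10 T and NK cell markers was 373 and 372 CPM in cKO and 380 and 359 in wild type, with none at 0, and H3K27me3 being a mark of silent genes, these sums are no measure of how many such cells were present.

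From their lengths, the counted windows were read as each gene with the 3 kb before and after it. On that reading a value covers promoter and gene body together. Promoter sequence, as RefSeq gives it for GRCm38.p6 (the build mm10), was at hand for 5 of the 8 genes, Gata1, Gata2, Gata3, Gata5 and Zfpm1. The 250 bases before the start are shown for the start that lies inside the window, as read here, of each gene. They are shown because CpG-dense promoters are the usual sites of PRC2 and these 5 genes span the range of the mark within the family. Capitals mark CpG dinucleotides.

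Gata1, chrX:7967911-7968160, minus strand: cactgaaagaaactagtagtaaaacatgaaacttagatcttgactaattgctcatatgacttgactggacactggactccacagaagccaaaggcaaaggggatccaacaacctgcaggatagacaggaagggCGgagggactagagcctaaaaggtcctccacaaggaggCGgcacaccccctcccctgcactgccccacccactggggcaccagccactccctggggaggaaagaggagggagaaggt
Gata2, chr6:88198414-88198663, plus strand: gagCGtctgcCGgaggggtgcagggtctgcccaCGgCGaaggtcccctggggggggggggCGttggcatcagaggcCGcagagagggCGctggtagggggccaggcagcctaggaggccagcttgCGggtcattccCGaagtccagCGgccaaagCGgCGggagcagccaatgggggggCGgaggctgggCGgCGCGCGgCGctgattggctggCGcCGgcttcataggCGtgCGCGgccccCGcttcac
Gata3, chr2:9878601-9878850, minus strand: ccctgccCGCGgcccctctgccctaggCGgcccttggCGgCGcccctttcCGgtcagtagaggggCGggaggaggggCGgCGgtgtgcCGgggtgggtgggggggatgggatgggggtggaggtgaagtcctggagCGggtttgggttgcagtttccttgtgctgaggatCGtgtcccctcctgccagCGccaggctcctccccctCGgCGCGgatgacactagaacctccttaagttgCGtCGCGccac
Gata5, chr2:180334680-180334929, minus strand: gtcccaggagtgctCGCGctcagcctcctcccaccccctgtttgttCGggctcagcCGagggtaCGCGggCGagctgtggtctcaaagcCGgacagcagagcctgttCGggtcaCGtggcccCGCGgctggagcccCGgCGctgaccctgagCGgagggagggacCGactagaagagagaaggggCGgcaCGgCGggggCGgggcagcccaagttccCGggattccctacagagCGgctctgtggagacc
Zfpm1, chr8:122281891-122282140, plus strand: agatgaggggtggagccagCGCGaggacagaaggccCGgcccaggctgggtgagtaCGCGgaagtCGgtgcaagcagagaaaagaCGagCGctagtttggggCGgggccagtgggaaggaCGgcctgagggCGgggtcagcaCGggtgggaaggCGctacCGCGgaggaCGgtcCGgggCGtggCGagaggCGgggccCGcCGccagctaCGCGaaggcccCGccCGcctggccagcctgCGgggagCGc

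These stretches held 2 CpGs in Gata1, 24 in Gata2, 19 in Gata3, 22 in Gata5 and 28 in Zfpm1, against a median of 6 over 32851 promoters (quartiles 2 and 16). Gata1 thus stood apart as CpG-poor, and the other 4 were CpG-dense. The order of CpG content was not that of the mark per kb described next. Zfpm1, with the most CpGs of the 5, had the lowest level of all 8 genes, and Gata2, with 24, the highest. The CpGs were counted over 250 bases, and the mark was averaged over whole windows, 61.107 kb long for Zfpm1 and 14.369 kb for Gata2. The signal at the promoter alone cannot be read from these counts. Over all tested genes with a listed promoter, the 4899 with a CpG-rich first promoter (at least 50% G and C, and an observed to expected CpG ratio of at least 0.6) stood at a wild-type median of 0.240 CPM per kb, and the other 7360 at one of 0.848. The motif that GATA factors bind, the letters GATA with A or T before them and A or G after them, was searched on both strands and was found in none of the 5 stretches, while 26.5% of all promoters of the same length held at least 1. Gata2 has a further listed start upstream, at its distal promoter, whose 250 bases before the start hold 22 CpGs. With 3 kb taken on each side, that start lies 1773 bp outside the counted window. Only the length of the window was at hand, so whether the Gata2 values cover the distal promoter is not certain.

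Per kb of counted window, the family fell into a strongly marked and a weakly marked group, and the split was the same in both genotypes. Counts are given as CPM, scaled to library size with TMM factors, and levels between genes as CPM per kb of counted window. CPM are relative within a library, and a gain or loss of the mark shared by all genes cannot be seen in them. Gata2 had 22.6 and 23.1 CPM per kb in the cKO libraries and 19.6 and 18.2 in the wild-type libraries. Gata6 had 10.1 and 11.2 CPM per kb in cKO and 11.3 and 8.57 in wild type, Gata4 10.2 and 10.4 in cKO and 9.78 and 7.86 in wild type, and Gata3 9.51 and 9.99 in cKO and 9.61 and 8.70 in wild type. These 4 genes lay above the 90th percentile of all tested genes in wild type, 3.37 CPM per kb, in every library. Among all tested genes the mean of Gata2 stood at the 99.8th percentile in cKO and the 99.7th in wild type, and those of Gata3, Gata4 and Gata6 between the 97.4th and 98.0th.

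The other 4 genes carried far less per kb. Gata1 had 1.70 and 1.56 CPM per kb in cKO and 1.52 and 1.42 in wild type, above the median of all tested genes, which was 0.687 in cKO and 0.672 in wild type. Gata5 had 0.549 and 1.01 CPM per kb in cKO and 0.746 and 0.558 in wild type, around that median. Zfpm2 had 0.499 and 0.587 CPM per kb in cKO and 0.654 and 0.646 in wild type, below it in all libraries. Zfpm1 had 0.355 and 0.320 CPM per kb in cKO and 0.330 and 0.322 in wild type, the lowest of the family and about the 34th percentile of tested genes in both genotypes. Per kb, both FOG genes thus stood below all 4 strongly marked GATA genes in every library. The Zfpm2 window is 455.551 kb long, against 14.369 kb for Gata2, and a level per kb averages over the whole window. Over its whole window Zfpm2 had a mean of 248 CPM in cKO and 296 in wild type, against 328 and 271 at Gata2. A mark confined to part of such a window cannot be told from these levels. In the order of levels, the libraries of Gata6 and Gata4 overlapped in cKO, those of Gata6, Gata3 and Gata4 overlapped in wild type, and those of Gata5 and Zfpm2 overlapped in both. The steps from Gata2 to the next gene, from the strongly marked genes to Gata1, from Gata1 to Gata5 and from Zfpm2 to Zfpm1 exceeded the spread of the libraries in both genotypes.

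**Figure D1:**
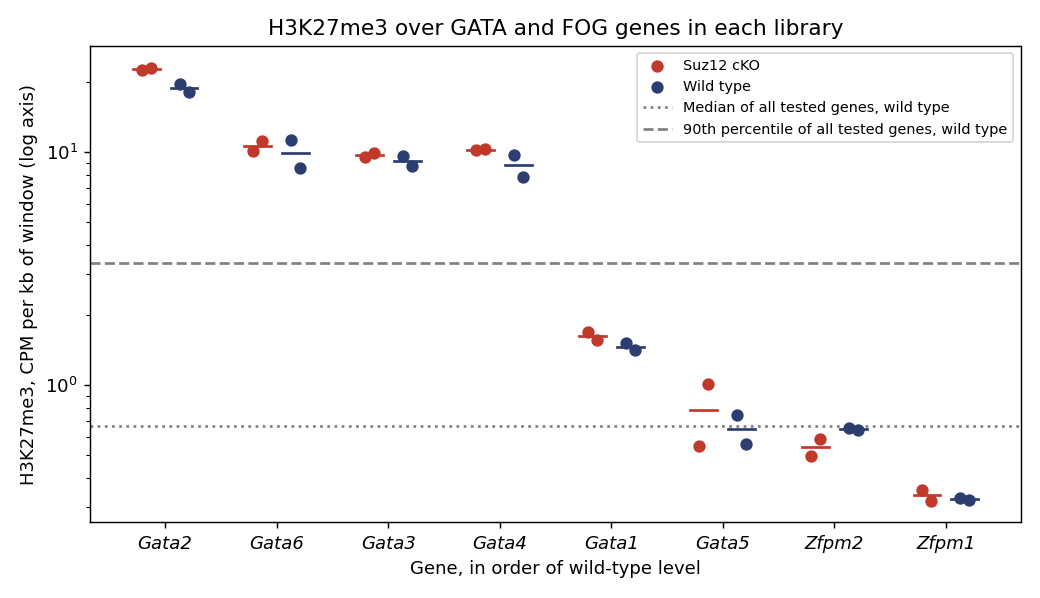
H3K27me3 level of each GATA and FOG gene in CPM per kb of counted window (log axis), with 1 point per library, cKO left of wild type, and a bar at the mean of 2 libraries. Gata2, Gata6, Gata3 and Gata4 lie above the 90th percentile of all tested genes in wild type (dashed, 3.37), and Zfpm2 and Zfpm1 lie under its median (dotted, 0.672).

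Windows that overlap may lose reads, depending on counting options that were not given. Such overlap concerned mainly 1 strongly and 1 weakly marked gene. By reference positions the window of Gata5 shares 50.2% of its length with that of Gata5os, a long noncoding RNA gene, and that of Gata3 shares 12.2% with the noncoding genes 4930412O13Rik and 9230102O04Rik. Per kb of unshared window, Gata5 stood at 1.57 CPM per kb in cKO and 1.31 in wild type, close to Gata1, and Gata3 at 11.1 and 10.4. These values hold only if all reads in the shared parts were lost, which was not tested. By reference positions other windows cover all of the 4930412O13Rik window, yet it had 279 and 282 counts in cKO and 155 and 115 in wild type. The Gata4 window overlapped that of Neil2 over 1.57% of its length, and the windows of the other 5 genes overlapped none. The deposited window lengths of Gata6 and Zfpm2 match the reference span with its 3 kb flanks to within 1 bp, and those of the other 6 genes are shorter. For Gata2, Gata3 and Gata5 the window was placed from a listed start of matching length, so that of Gata3 ends at 9881600, inside the reference span of the gene. For Gata1, Gata4 and Zfpm1 no listed start matched, the reference span was used, and their overlaps are approximate. Their counted windows are shorter than that span with its flanks, so part of the gene or a promoter may not be counted.

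The question of the design was how loss of Suz12 changes the mark, and none of the 8 genes was called. By edgeR's quasi-likelihood test with Benjamini-Hochberg adjustment over all 16752 tested genes, 0 of 8 had an adjusted p below 0.05, against 6.42% of all tested genes, 4.46% as gained and 1.96% as lost. All 8 had passed the count filter. By DESeq2's Wald test 0 of 8 were called, against 3.76% of genes. At an unadjusted p below 0.05, 3 of 8 passed (Gata2, Gata4 and Zfpm2), against 18.5% of tested genes. The libraries of the genotypes did not overlap for 4 of 8 (Gata1, Gata2, Gata4 and Zfpm2), against 47.6%. Wild-type library 1 exceeded wild-type library 2 at all 8, from 1.01-fold at Zfpm2 to 1.34-fold at Gata5. Values given without wild-type library 1 thus rest on the lower wild-type library alone. The log2 fold change of cKO over wild type was positive for 7 of 8, with a median of 0.12, against −0.01 over all tested genes. This direction held under all 14 alternatives for Gata1 to Gata4 and turned under at least 1 for Gata5, Gata6 and Zfpm1.

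Gata2, of blood stem cells and mast cells (chromosome 6, 88193891 to 88207032 in mm10), had the lowest p of the family. It had 324 and 332 CPM in cKO and 281 and 261 CPM in wild type. Both cKO libraries lay above both wild-type libraries, and the replicates were close. The log2 fold change was 0.27 ± 0.10 (SE, adjusted p = 0.0618), with a 95% interval of 1.06- to 1.38-fold. It was called without wild-type library 1 (0.34, adjusted p = 0.0318), where 5.04% of tested genes were, and its adjusted p was between 0.228 and 0.486 without each of the other libraries.

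Gata4, of heart and endoderm (chromosome 14, 63198914 to 63271712), had 534 and 542 CPM in cKO and 512 and 412 CPM in wild type. The cKO libraries were nearly alike, while the wild-type libraries differed 1.24-fold, about as much as the genotypes did at 1.17-fold between means. The log2 fold change was 0.22 ± 0.09 (adjusted p = 0.131, 95% interval 1.03- to 1.31-fold). Without wild-type library 1 it was called at 0.39 (adjusted p = 0.00166), and without wild-type library 2 it stood at 0.08 (adjusted p = 0.755).

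Gata6, the factor of peritoneal macrophages (chromosome 18, 11052510 to 11085636), had 395 and 440 CPM in cKO and 442 and 335 CPM in wild type. The genotypes overlapped, and wild-type library 1 was the highest of the 4 and wild-type library 2 the lowest. The wild-type libraries differed 1.32-fold, against 1.07-fold between the means of the genotypes. Between genotypes the log2 fold change was 0.10 ± 0.09 (adjusted p = 0.629, 95% interval 0.944- to 1.21-fold). The direction turned on which wild-type library was kept: the log2 fold change was 0.32 without wild-type library 1 (adjusted p = 0.0264) and −0.07 without wild-type library 2 (adjusted p = 0.794).

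Gata3, of T cells (chromosome 2, 9857078 to 9887953), had 262 and 275 CPM in cKO and 264 and 239 CPM in wild type. The genotypes overlapped, and the log2 fold change was 0.09 ± 0.10 (adjusted p = 0.696, 95% interval 0.930- to 1.22-fold). For these 4 strongly marked genes the upper bounds of the edgeR intervals lay between 1.21- and 1.38-fold, and the lower bounds between 0.930- and 1.06-fold. The standard error by DESeq2 was 0.22 for Gata6, against 0.09 by edgeR, so the bounds of Gata6 depend on the test. For Gata2, Gata3 and Gata4 it was 0.11, 0.12 and 0.11 by DESeq2.

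Gata1, of red cells and megakaryocytes, lies on the X chromosome (7959260 to 7976663). It had 81 and 78 counts in cKO, or 24.8 and 22.8 CPM, and 57 and 45 counts in wild type, or 22.1 and 20.6 CPM. The cKO libraries lay just above the wild-type libraries, and the log2 fold change of 0.15 ± 0.24 was within its error (adjusted p = 0.799, 95% interval 0.804- to 1.53-fold). The X chromosome took 5.35% and 5.43% of the counts in cKO and 5.27% and 5.50% in wild type, and its 946 tested genes had a median log2 fold change of 0.07, with 12 gained and 18 lost. Gata5, of heart and endoderm (chromosome 2, 180325088 to 180335503), had 28 and 54 counts in cKO and 30 and 19 in wild type, or 8.56 and 15.8 CPM in cKO and 11.6 and 8.70 CPM in wild type. The cKO libraries differed 1.84-fold between themselves and bracketed both wild-type libraries. Its 95% interval was the widest of the family, 0.753- to 1.88-fold (adjusted p = 0.760), and the log2 fold change was 0.63 without cKO library 1 and −0.25 without cKO library 2.

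Of the FOG genes, Zfpm2 was the only member of the family with a negative log2 fold change under the scaling used here. Zfpm2, the cofactor of Gata4 in the heart (chromosome 15, 40655042 to 41104592), had 227 and 268 CPM in cKO and 298 and 294 CPM in wild type. Both cKO libraries lay below both wild-type libraries. The log2 fold change was −0.26 ± 0.10 (adjusted p = 0.0954, 95% interval 0.732- to 0.955-fold). It was called as lost with library totals alone (−0.31, adjusted p = 0.0177, 6.39% of genes called), with upper-quartile factors (−0.34, adjusted p = 0.0125, 6.05% called), with TMM factors from the 10% of genes of highest level (−0.35, adjusted p = 0.0230, 4.89% called) and among genes with a mean of at least 50 counts (−0.31, adjusted p = 0.00806, 13% called), and stood at −0.05 with scaling to housekeeping genes (adjusted p = 0.931). Without cKO library 1 it was −0.14 and without cKO library 2 −0.38, neither called. The Zfpm2 window is 455.551 kb long, against a median of 29.15 kb over tested genes, and the 314 tested windows of 400 kb or more had a median log2 fold change of 0.01 (quartiles −0.12 and 0.12). Of these 314 windows, 32 gained and 16 lost, larger shares than the 747 and 329 of all 16752 tested genes. Zfpm1, the cofactor of Gata1 (chromosome 8, 122281856 to 122337862), had 21.7 and 19.6 CPM in cKO and 20.2 and 19.7 CPM in wild type. The genotypes overlapped, and the log2 fold change of 0.05 ± 0.25 (adjusted p = 0.950) was on the other side of 0 under 3 of the 5 other scalings.

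Ratios of counts within a library need no scaling, and 1 pair was chosen for its opposite directions after the values were seen. The ratio of Gata2 to Zfpm2 counts was 1.42 and 1.24 in cKO and 0.944 and 0.886 in wild type, so the genotypes did not overlap. As a pair chosen on these values it carries no test. The ratio of Gata2 to Gata6 was 0.820 and 0.755 in cKO and 0.635 and 0.779 in wild type, which overlapped. That of Gata4 to Gata6 was 1.352 and 1.232 in cKO and 1.157 and 1.228 in wild type, so the genotypes lay apart by less than the spread within either.

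**Figure D2:**
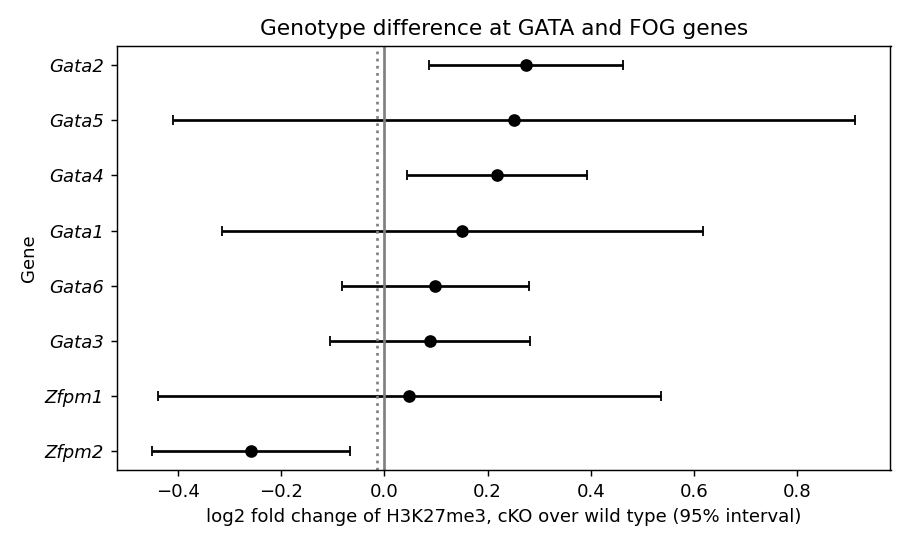
The log2 fold change of H3K27me3, cKO over wild type, for each GATA and FOG gene with its 95% interval from the edgeR fit (2 libraries per genotype). The solid line is at 0 and the dotted line at the median of all tested genes, −0.01. Gata2 and Gata4 lie to the right of 0 and Zfpm2 to the left, and the widest interval is that of Gata5.

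Calls at Zfpm2 depended on the scaling and the filter, and calls at Gata2, Gata4 and Gata6 on wild-type library 1. Scaling to 26 housekeeping genes gave a median over all genes of 0.19, against −0.01 with TMM, and moved all 8 members up with it. Of these 26 genes, 19 were below the count filter and 2 were at 0 in all libraries. Their summed signal was 124 and 107 CPM in cKO and 130 and 135 CPM in wild type, so this scaling rests on few counts. Upper-quartile factors gave a median over all genes of −0.10. Gata2 and Gata4 kept a positive value under all 14 alternatives run, between 0.19 and 0.48 for Gata2 and between 0.08 and 0.42 for Gata4, and Zfpm2 a negative one, between −0.38 and −0.05. Gata1 and Gata3 were positive under all 14 as well, between 0.07 and 0.35 for Gata1 and between 0.0033 and 0.29 for Gata3, and were called under none.

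**Figure D3:**
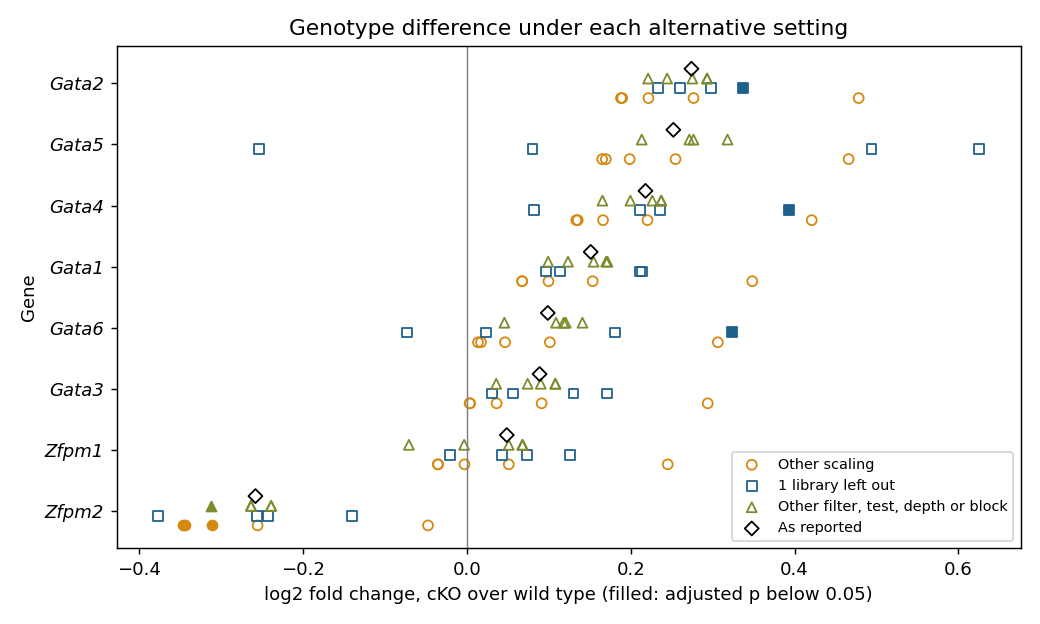
The log2 fold change of each GATA and FOG gene, cKO over wild type, as reported (diamonds) and under other scalings (circles), with 1 library left out (squares) and under other filters, tests, depth or the replicate block (triangles). Filled symbols have an adjusted p below 0.05. Gata2, Gata4 and Gata6 are filled only without wild-type library 1, and Zfpm2 is filled under 4 settings.

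Some of these genes stood far above the genes next to them in the mark and others did not. The nearest gene with counts on each side was taken for every member, 16 genes in all and all tested. Gata2, Gata3, Gata4 and Gata6 stood above both of these neighbours in both genotypes. For Gata3, at 9.75 CPM per kb in cKO and 9.15 in wild type, the margin was small on 1 side. There 4930412O13Rik, whose window overlaps its own, had 7.28 in cKO and 4.89 in wild type. The other Gata3 neighbour, 1700061F12Rik, lies 659.594 kb away. The Gata4 neighbours Neil2 and Blk had 0.383 and 2.81 CPM per kb in wild type, against 8.82 at Gata4. Gata3 stood below another gene whose window overlaps its own, 9230102O04Rik, which had 14.8 and 14.7 CPM per kb in cKO and 13.4 and 13.8 in wild type. Gata6 had 10.7 ± 0.809 CPM per kb in cKO and 9.94 ± 1.94 in wild type (SD, n = 2 each), whereas the nearest genes, Mib1 and Rbbp8, lie 233.932 and 547.640 kb away and had 0.0558 and 0.126 CPM per kb in wild type. Gata2 had 22.8 ± 0.391 CPM per kb in cKO and 18.9 ± 0.992 in wild type, against 4.04 ± 0.771 in wild type at Dnajb8, a chaperone gene 15.236 kb away, and 0.102 at Rpn1 on the other side. Zfpm1 was the reverse: at 0.338 ± 0.0248 CPM per kb in cKO and 0.326 ± 0.00551 in wild type it lay between Zfp469, with 4.39 ± 0.220 in wild type, and Trhr2, with 2.78 ± 0.174. Gata5 also lay below both of its neighbours, at 0.780 ± 0.327 CPM per kb in cKO and 0.652 ± 0.133 in wild type, against 1.82 ± 0.221 in cKO and 1.63 ± 0.526 in wild type at Rbbp8nl and 2.64 ± 0.0399 in cKO and 1.88 ± 0.229 in wild type at Gata5os. Zfpm2, at 0.543 ± 0.0621 CPM per kb in cKO and 0.650 ± 0.00528 in wild type, had a lower mean than Oxr1 in cKO (0.715 ± 0.0292) and a higher one in wild type (0.543 ± 0.0375). Its other neighbour, the noncoding Gm16294, had 0.456 ± 0.00517 in cKO and 0.498 ± 0.180 in wild type. Gata1 differed little from its neighbours Hdac6 and Glod5, which had 1.65 ± 0.0933 and 1.81 ± 0.388 CPM per kb in wild type.

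Of the 16 neighbours, 2 were called, both as gained, a share to be read against the 4.46% of tested genes that gained. The noncoding gene 4930412O13Rik, beside the start of Gata3 (chromosome 2, 9881246 to 9886767), had 85.3 and 82.4 CPM in cKO and 60.1 and 52.7 CPM in wild type. It rose by 0.57 ± 0.14 on the log2 scale (adjusted p = 0.00340) while Gata3 was not called; the difference between the 2 genes was not tested. It was not called without cKO library 1, cKO library 2 or wild-type library 2 (adjusted p = 0.0900, 0.0679 and 0.0660) or by DESeq2 (0.0982). By reference positions other windows cover all of its window, yet 279 and 282 counts were listed for it in cKO and 155 and 115 in wild type, so its values are uncertain. The overlapping 9230102O04Rik, with 186 and 183 CPM in cKO and 168 and 173 CPM in wild type, was not called (0.12 ± 0.11, adjusted p = 0.612). Oxr1, an oxidation resistance gene 342.890 kb from Zfpm2, had 953 and 1057 counts in cKO and 559 and 522 in wild type, or 300 ± 12.2 CPM in cKO and 228 ± 15.7 CPM in wild type, and rose by 0.40 ± 0.10 (adjusted p = 0.00255). Without cKO library 2 it was not called (adjusted p = 0.210), nor with housekeeping scaling (0.0731) or TMM factors from the top 10% of genes (0.0551). The ratio of Zfpm2 to Oxr1 counts, again chosen after the values were seen, was 0.781 and 0.867 in cKO and 1.37 and 1.23 in wild type. Gata5os, whose window overlaps that of Gata5, had 37.0 and 36.2 CPM in cKO and 28.3 and 23.8 CPM in wild type (0.48 ± 0.20, adjusted p = 0.152).

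**Figure D4:**
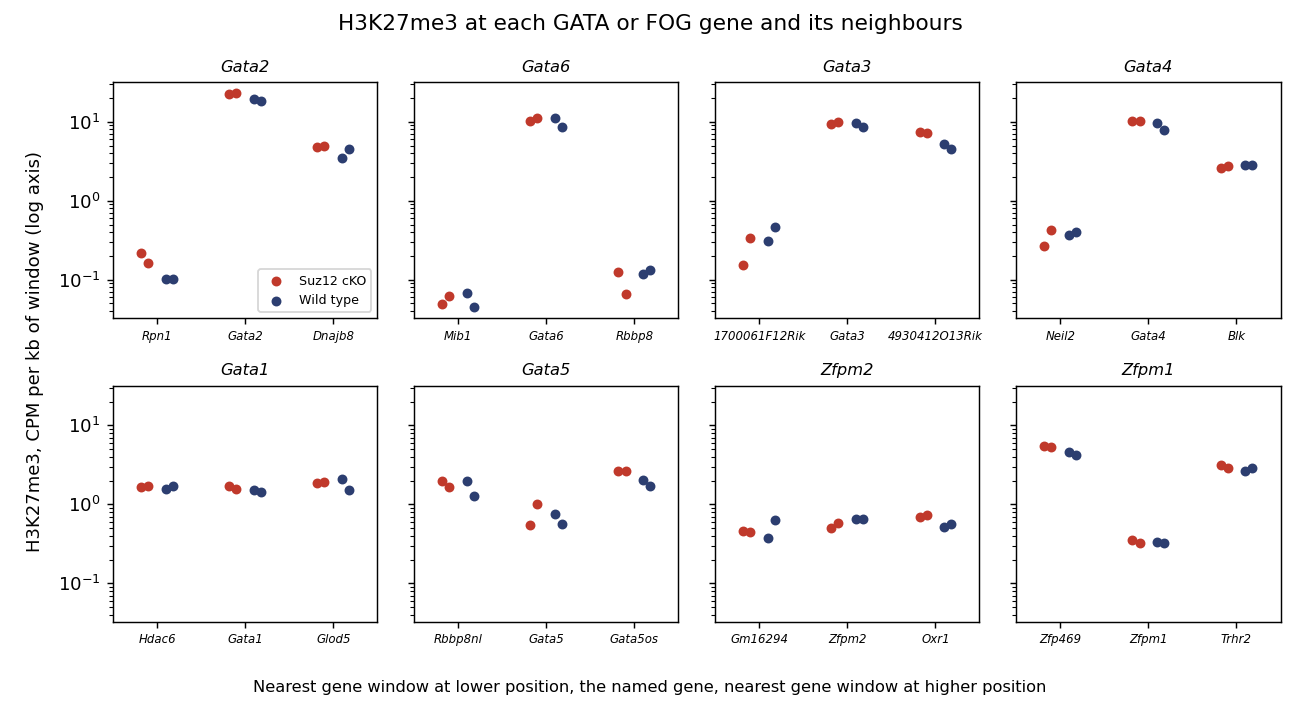
H3K27me3 level in CPM per kb of window (log axis, shared by all panels) at each GATA or FOG gene (middle of each panel) and the nearest gene with counts at lower (left) and higher (right) position, 1 point per library, cKO left of wild type. Gata2, Gata6, Gata3 and Gata4 stand above both neighbours shown, and Zfpm1 and Gata5 stand below both.

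The genes whose level over the 4 libraries was closest to that of Gata6, by Euclidean distance in log2 CPM per kb among tested genes, were Hoxa7 (distance 0.0464), H2-M5 (0.117) and Card14 (0.121). Hoxa7, a Hox factor of body axis patterning whose window overlaps others over 79.8% of its length, had 9.80 and 11.2 CPM per kb in cKO and 11.2 and 8.64 in wild type. Like Gata6 it was high in wild-type library 1 and low in wild-type library 2. H2-M5 and Card14 were also lowest in wild-type library 2, at 8.79 and 8.45 CPM per kb. As all 3 genes were chosen for closeness to Gata6 over these same libraries, the shared pattern follows from the choice.

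Other genes with a GATA-type zinc finger, a list of 9 that holds the repressor Trps1 and subunits of the NuRD corepressor, carried little of the mark, with a median of 0.0780 CPM per kb in cKO and 0.110 in wild type. Of these 9, 5 passed the count filter, 0 gained and 1 lost, against 4.46% gained and 1.96% lost of all tested genes, and the median log2 fold change was −0.65 (all tested genes −0.01). The lost gene was Rere, a corepressor with a GATA-type finger, with 133 and 152 CPM in cKO and 178 and 181 CPM in wild type (−0.33 ± 0.11, adjusted p = 0.0448). It was called under 6 of the 14 alternatives. Without each of the 4 libraries in turn its adjusted p was 0.0942 to 0.536, and it was not called with no count filter (0.0873), after thinning (0.0529) or by DESeq2 (0.342). With housekeeping scaling its log2 fold change was −0.12 (adjusted p = 0.799). Trps1 had 15.6 and 17.2 CPM in cKO and 21.7 and 31.1 CPM in wild type (−0.67 ± 0.25, adjusted p = 0.0810). The NuRD and CtBP genes that FOG proteins recruit stood as low, at 0.0922 CPM per kb in cKO and 0.132 in wild type, and of 7 tested of 10 listed 0 were called.

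The calls among partners and targets of the family are to be read against the 4.46% of all tested genes that gained and the 1.96% that lost, and 0 or 1 call in a list of 12 to 19 genes is near that background. Of 14 tested blood partners of GATA factors, 1 gained and 0 lost, with a median log2 fold change of −0.08. That gene was Cebpa, a myeloid transcription factor, with 22 and 23 counts in cKO and 4 and 4 in wild type (1.97 ± 0.60, adjusted p = 0.0243); it was not called without any 1 of the 4 libraries (adjusted p = 0.111 to 0.324) or with TMM factors from the top 10% of genes (0.0525). DESeq2 gave it no adjusted p, and after thinning all libraries to the smallest it stood at 2.88. Tal1, the partner of Gata1 and Gata2 in blood stem cells, was strongly marked, like Gata2, with 409 and 410 CPM in cKO and 411 and 319 CPM in wild type, or 22.5 ± 0.0359 CPM per kb in cKO, and was not called (0.16 ± 0.09, adjusted p = 0.345). Of 15 tested red cell and megakaryocyte targets of Gata1, 0 were called (median −0.02). Tfrc, the transferrin receptor gene, came nearest, with 7.34 and 6.13 CPM in cKO and 14.3 and 13.3 CPM in wild type (adjusted p = 0.0572).

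Of 12 tested mast cell and eosinophil targets of Gata1 and Gata2, 1 gained and 0 lost (median 0.03), and of 14 tested T helper 2 and ILC2 targets of Gata3, 1 gained and 0 lost (median 0.11). Both calls are Il1rl1, the receptor for IL-33, which is on both lists. It had 42.5 and 45.3 CPM in cKO and 20.6 and 23.4 CPM in wild type, rose by 1.00 ± 0.20 (adjusted p = 8.88e-05) and passed the threshold in each of the 14 alternatives. Its window overlaps others over 8.82% of its length. Of 19 tested cardiac and endodermal partners and targets of Gata4, Gata5 and Gata6, 0 were called (median 0.05). Sox7, an endodermal factor, had the lowest p of these, with 148 and 169 CPM in cKO and 214 and 179 CPM in wild type (−0.31 ± 0.11, adjusted p = 0.0548). Of 17 tested genes of the Gata6 program of peritoneal macrophages, 2 gained and 1 lost, against 4.46% gained and 1.96% lost of all tested genes, with a median of 0.03. Fn1, of the extracellular matrix, gained, with 186 and 212 counts in cKO and 8 and 20 in wild type (3.32 ± 0.26, adjusted p = 9.37e-28). Its log2 fold change was 2.70 without wild-type library 1 and 4.25 without wild-type library 2, called both times. Tgfb2, a TGF-β ligand, also gained (1.48 ± 0.16, adjusted p = 8.18e-15), and Vsig4, a complement receptor, was lost (−0.75 ± 0.21, adjusted p = 0.0105). Vsig4 was not called without cKO library 1, cKO library 2 or wild-type library 2 (adjusted p = 0.123, 0.0893 and 0.198), with housekeeping scaling (−0.55, adjusted p = 0.225) or by DESeq2 (0.235). All 3 were called while Gata6 was not, and the difference was not tested.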

How the data were processed

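H3K27me3 was profiled in 4 libraries of 100000 cells each, and the sample titles gave the groups. The authors deposited whole-number counts per Entrez gene and a window length, made with featureCounts on mm10 per the submitters' processing notes. For the aligner, duplicates and counting options: not given in the sources used here. Its window length equals the reference span plus 6000 bp for 11525 genes, so windows were read as the gene with 3 kb on each side, without regard to strand. Symbols came from the RefSeq table of GRCm38.p6, in which 25204 IDs (93.0%) were found.

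Genotypes were compared across all genes with edgeR 4.0.16 in R 4.3.3 (filterByExpr, TMM, estimateDisp, glmQLFit, glmQLFTest, genotype as the only term), and a gene was called at a Benjamini-Hochberg adjusted p below 0.05. Standard errors are the size of the log2 fold change divided by the square root of F. DESeq2 1.42.0 was an alternative. The procedure was also run on simulated counts, with larger changes than the differences at these genes, so that run is no measure of its power for them. Nothing in the labels says that replicates share an animal or a day. The p-values rest on 2 libraries per genotype. In edgeR the spread of each gene is drawn towards that of other genes, so its standard errors are not the gene's own spread alone. Genes named are the 8 members, their nearest neighbours with counts, a selection of the 3 genes of lowest p in each related list, and the 3 genes closest to Gata6; 9230102O04Rik was added because its window overlaps that of Gata3. Promoter stretches end 1 base before the start. The members and lists were chosen with earlier results of these data known. Of 20 red cell and megakaryocyte targets listed, 18 were in the table.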

Additional observations from a re-analysis of the deposited data

How the results depend on the processing

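Among the 14 alternatives, the number of GATA and FOG genes called, 0 as reported, was 1 with library totals alone, upper-quartile factors, TMM on the top 10% of genes and a mean of at least 50 counts (Zfpm2 each time, at −0.31, −0.34, −0.35 and −0.31) and 0 to 3 with 1 library left out. Leaving out 1 library gave log2 fold changes of 0.23 to 0.34 for Gata2, 0.0821 to 0.39 for Gata4, −0.25 to 0.63 for Gata5, −0.0734 to 0.32 for Gata6 and −0.0208 to 0.13 for Zfpm1. Zfpm1 was −0.0351 by upper-quartile factors, −0.0357 by TMM on the top 10% of genes, −0.0030 by library totals, −0.0035 with a mean of at least 50 counts and −0.0708 after thinning all libraries to the smallest; the cause was not tested. Gata5 has no value with a mean of at least 50 counts. Over all genes, 747 gained and 329 lost as reported, against 603 and 467 with library totals alone, 494 and 519 with upper-quartile factors, 697 and 63 with housekeeping scaling, 415 and 404 with TMM on the top 10%, 557 and 211 after thinning and 322 and 45 by DESeq2; with 1 library left out, gains numbered 350 to 738 and losses 76 to 207. Levels moved by more than the spread of the libraries for Gata2 in cKO (22.2 CPM per kb) and Gata4 in cKO (9.98) with library totals alone, and per kb of unshared window for Gata3 (11.1 in cKO, 10.4 in wild type), Gata4 in cKO (10.4) and Gata5 (1.57 in cKO, 1.31 in wild type). Samples with the same replicate number share only that number: their deviations from the group means had a correlation of 0.008 across genes. The fit with the replicate number as a block gave 733 gains and 306 losses and 0 members called, with Gata2 at 0.28 (adjusted p = 0.0766) and Zfpm2 at −0.26 (adjusted p = 0.104). Of the 8 genes, Gata1, Gata5 and Zfpm1 had the fewest counts, 19 to 81 per library.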
